A study of Mus musculus with 18 samples.

Results

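Amino acid transporters and asparagine synthetase were followed through 18 Affymetrix arrays of mouse embryonic stem cells (ESCs), with 1 array per sample. The 10 genes were Slc7a11, Slc7a5, Slc3a2, Slc7a3, Slc7a1, Slc38a2, Slc1a4, Slc1a5, Slc6a9 and Asns, of 18194 genes in the table. They were chosen with earlier results of these data known, and taken by symbol. In all, 20 probe sets were annotated to them and to no other gene. Every level below is a log2 probe set value made by the robust multi-array average (RMA), and every change is the difference between 2 such values. A gene with several probe sets is given by its brightest one, judged by the mean of all arrays, and the others are given where they differ. Levels are compared between samples and not between genes, because probe sets differ in how strongly they bind their target.

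All samples were male 129SV EBRTcH3 ESCs or derivatives of them. LY294002, an inhibitor of the lipid kinase PI3K, was given to parental ESCs in serum with LIF for 5 days (2 samples) or 2 days (1 sample). It was also given for 2 and for 5 days to ESCs overexpressing wild-type c-Myc and to ESCs overexpressing c-Myc(T58A), with 1 sample each, and for 5 days to 1 sample of parental ESCs in 2i medium. The untreated samples were 2 of parental ESCs in serum and 1 each of the c-Myc, the c-Myc(T58A) and the 2i cultures. Doxycycline (Dox), the treatment through which loss of Max was examined, was given to Max-null ESCs for 4 and for 6 days, and to Max-null ESCs overexpressing p110 alpha, a catalytic subunit of PI3K, for a time that the labels leave out. Each of these 2 Max-null lines had 1 untreated sample. The labels give no dose, number of clones or promoter, and 1 description calls the samples treated alongside the untreated c-Myc(T58A) ESCs N-Myc overexpressing. They do not say that replicates were separate cultures, so p-values measure the spread between these samples, which may be technical.

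Cells take up amino acids through carriers that each handle a chemical group of them. SLC3A2 is the heavy chain that brings SLC7A5, an exchanger of leucine and other large neutral amino acids, and SLC7A11, which imports cystine in exchange for glutamate, to the cell surface. SLC7A1 and SLC7A3 carry arginine and lysine. SLC38A2, SLC1A4 and SLC1A5 carry small neutral amino acids and glutamine, SLC6A9 carries glycine, and ASNS makes asparagine from aspartate and glutamine. Several of these genes are known targets of ATF4, a transcription factor whose protein is made when amino acids run short or the endoplasmic reticulum is stressed, and which binds C/EBP-ATF response elements (CAREs). Arginine and leucine carried by such transporters are also known to activate the kinase complex mTORC1, which lies downstream of PI3K.

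Promoters were available from RefSeq (build GRCm38.p6) for 7 of the 10 genes, and not for Slc7a5, Slc7a3 and Slc1a5. The CARE motif was searched as TGATGNAAN on both strands of the 250 bases before each start. It was found in Asns and in Slc7a11, which are printed because they carried it, 5′ to 3′ on the strand of the gene, with the motif in capitals. The Asns stretch lies at chr6:7693210-7693459 on the minus strand and holds 1 match, from base -23 to base -15 counted from the start.
Asns: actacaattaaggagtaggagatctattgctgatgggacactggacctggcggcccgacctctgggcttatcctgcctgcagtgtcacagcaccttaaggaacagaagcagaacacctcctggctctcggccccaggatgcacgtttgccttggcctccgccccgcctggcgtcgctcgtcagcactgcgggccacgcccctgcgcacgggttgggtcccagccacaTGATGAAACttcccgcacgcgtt
The Slc7a11 stretch lies at chr3:50443614-50443863 on the minus strand and holds 2 matches, the second of them on the opposite strand.
Slc7a11: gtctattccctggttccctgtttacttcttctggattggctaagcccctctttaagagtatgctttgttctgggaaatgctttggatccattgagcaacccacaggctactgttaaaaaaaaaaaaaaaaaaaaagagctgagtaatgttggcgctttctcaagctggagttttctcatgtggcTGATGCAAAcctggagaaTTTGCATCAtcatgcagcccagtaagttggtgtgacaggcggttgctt
Over all 32851 RefSeq promoters, 3.44% held the motif in the same 250 bases. A further match spanned the start of Slc1a4 and read TGATGCAAC on the opposite strand, in a window of 300 bases in which 3.95% of promoters held a match. The E-box CACGTG, the core of sites bound by Myc and Max, was in none of the windows of these 7 genes, against 6.02% of all promoters in the 250 bases. A match is a run of letters and not a measured site.

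The 18 arrays fell into 2 sets. Parental serum replicate 1 and the 2i cultures, 4 arrays in all, had medians of 5.03 to 5.05 and up to 9 decimals, and the other 14 had medians of 5.31 to 5.52 and at most 6 decimals. The sets may be separate RMA runs, which no label states, so levels are not set across them, while every treated sample shares a run with its untreated sample. The 8 markers of ESCs, among them Pou5f1, Sox2 and Nanog, lay above the level filter on all 18 arrays, with summed log2 levels of 97.8 to 101.3. The probe sets used for Max, Myc and Pik3ca, the gene of p110 alpha, check neither loss of Max nor gain of c-Myc or p110 alpha, because the labels do not say which sequence was removed or introduced. Max read 7.09 in untreated Max-null ESCs, 6.89 at day 4 of Dox and 7.18 at day 6, and Myc read 7.51 and 6.99 in the untreated c-Myc and c-Myc(T58A) lines against 7.43 in untreated parental replicate 2. The brightest Pik3ca probe set read 8.82 in untreated p110 alpha Max-null ESCs, against 8.50 in untreated Max-null ESCs, and 8.86 in untreated parental replicate 2. The array of Max-null ESCs at day 6 of Dox stood apart, with the highest median (5.524), the smallest spread (SD 2.356) and 2186 genes at least 2-fold lower than in its untreated sample. Below, 2-fold is counted where a comparison has 1 sample a group and no test.

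In parental replicate 2 and the 2 c-Myc lines, LY294002 lowered most of these genes by day 5. The fit held 9 samples, blocked by line (4 residual degrees of freedom), and tested the 9 members whose level exceeded 4.64, the 40th percentile of the table, in at least 2 samples. At day 5, 7 of the 9 were lower, 0 were higher and 2 did not pass, with a median change of -0.84 against 0.05 over all genes tested. Of all 13420 genes tested, 44.1% passed in either direction, 18.5% were lower and 25.7% higher. Because the members were chosen with earlier results known, this contrast with all genes is not independent of that choice. The 7 called lower were also the 7 of 9 members lower in each of the 3 lines, against 29.3% of genes measured in all 3 pairs. They were called from these same 3 lines, so this is no separate support. How many of all genes separated treated from untreated samples completely, as described for some genes below, was not counted. Without parental replicate 2, or without the wild-type c-Myc line, the count was 6, with Slc3a2 no longer passing (adjusted p = 0.0519 and 0.114), while 36.9% and 21.7% of all genes passed.

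At day 2 the same fit found 4 of the 9 lower, 0 higher and 5 not passing, with a median of -0.37 against 0.04 over all genes tested. Background calls at day 2 were 30.5% in either direction and 12.3% lower. The 4 were Asns, Slc6a9, Slc7a3 and Slc7a1. This count moved with single lines, as did the calls over all genes. It was 0 without the wild-type c-Myc line, where 7.62% of all genes passed, and 2 without parental replicate 2 (Asns lower and Slc1a4 higher), where 22.0% did. It was 6 without the c-Myc(T58A) line, where 23.6% did, and 2 without the block for line, where 19.8% did. From day 2 to day 5 all 9 fitted changes were below 0, as were 48.2% of all genes, and 0 of 9 passed, against 2.35% of all genes. At an unadjusted p under 0.05, 7 of the 9 and 23.6% of all genes were past the threshold.

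**Figure D1:**
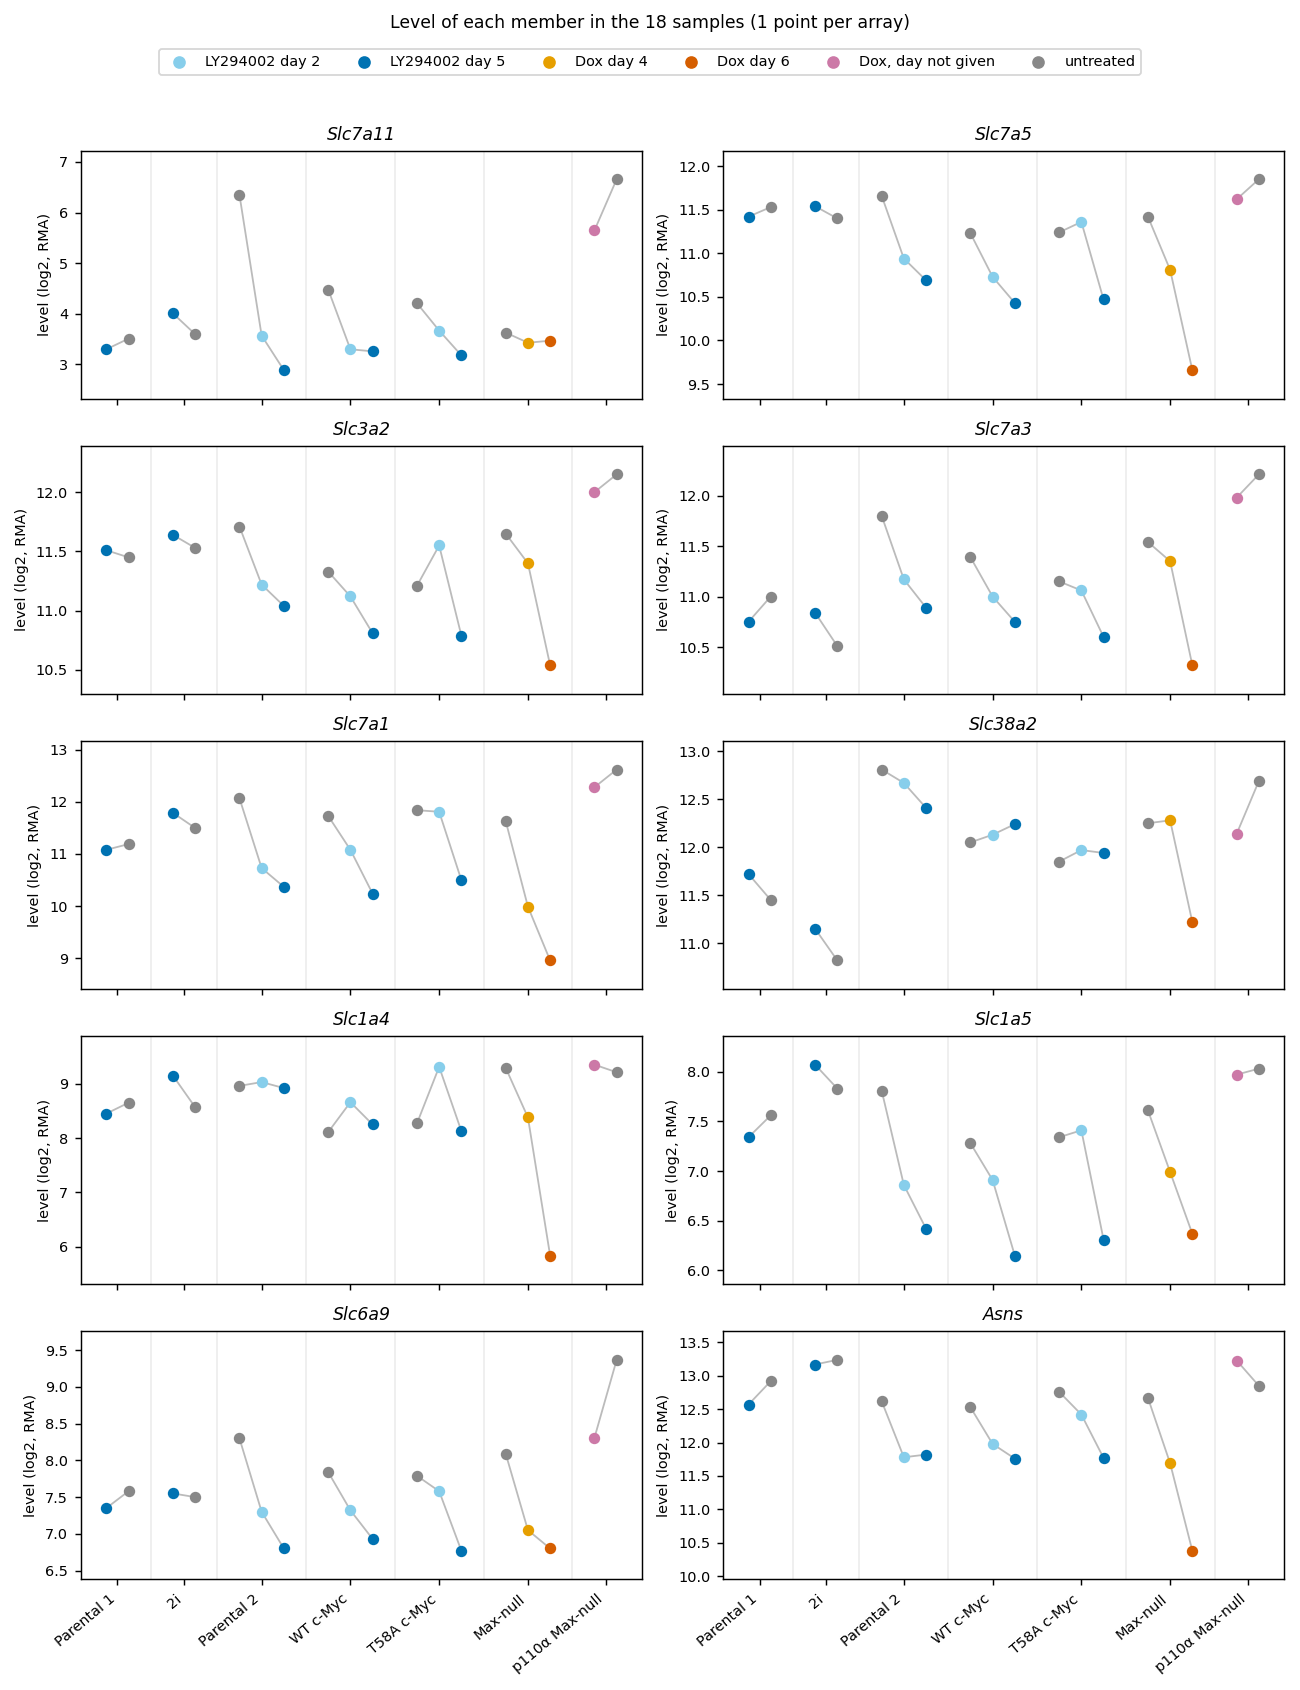
Log2 RMA level (vertical axis) of each of the 10 genes on the 18 arrays, 1 point per array, with samples of 1 line joined and colours for treatment. In parental replicate 2 and the wild-type c-Myc line Slc7a5, Slc3a2, Slc7a3, Slc7a1, Slc1a5 and Slc6a9 step down at day 2 and again at day 5, and in the c-Myc(T58A) line most of the fall lies between day 2 and day 5.

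Slc7a1, a widely expressed carrier of arginine and lysine, had the largest fall of the 9 at day 5, 2.84-fold (log2 change -1.51 ± 0.21, SE, limma adjusted p = 0.00125). Its level was 12.07 in untreated parental replicate 2, 10.73 at day 2 and 10.37 at day 5. In wild-type c-Myc ESCs it was 11.73, 11.08 and 10.24, and in c-Myc(T58A) ESCs 11.84, 11.81 and 10.50, in the same order. All 3 day 5 samples lay below all 3 untreated samples, and at day 2 the c-Myc(T58A) sample had moved by only -0.03. The day 2 coefficient was -0.67 ± 0.21 (adjusted p = 0.0486, and 0.0547 with arrays centred on their medians). A second probe set fell by 1.22 at day 5 (adjusted p = 0.00195), and another lay near background in all samples, between 3.71 and 4.88.

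Slc7a3, the other cationic carrier, fell 1.63-fold at day 5 (-0.70 ± 0.11, adjusted p = 0.00167). Parental replicate 2 read 11.80 untreated, 11.17 at day 2 and 10.89 at day 5. The wild-type c-Myc line read 11.39, 11.00 and 10.75, and the c-Myc(T58A) line 11.15, 11.06 and 10.60. Each line was lowest at day 5, and the 3 day 5 levels did not overlap the untreated ones. At day 2 the change was -0.37 ± 0.11 (adjusted p = 0.0333).

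Slc1a5, a carrier of glutamine and other neutral amino acids, fell 2.28-fold at day 5 (-1.19 ± 0.17, adjusted p = 0.00128). It read 7.81, 6.86 and 6.42 in parental replicate 2 from untreated to day 2 and day 5. The wild-type c-Myc line gave 7.28, 6.91 and 6.15, and the c-Myc(T58A) line 7.34, 7.41 and 6.31. The day 5 levels lay below every untreated level, whereas the day 2 change of -0.42 did not pass (adjusted p = 0.0977). A second probe set gave -1.08 at day 5 (adjusted p = 0.00169).

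Slc1a4 and Slc38a2, which carry alanine, serine and related small amino acids, were the 2 that did not pass at day 5. Slc1a4 read 8.96, 9.03 and 8.92 in parental replicate 2 from untreated to day 2 and day 5. It read 8.11, 8.66 and 8.25 in the wild-type c-Myc line and 8.27, 9.31 and 8.13 in the c-Myc(T58A) line. Day 2 was thus the highest of the 3 samples in every line, and the day 5 sample lay within 0.14 of the untreated one. The day 2 change was 0.55 ± 0.19 and did not pass (adjusted p = 0.0663). The 2 other Slc1a4 probe sets did pass, higher by 0.73 and 0.68 at day 2 (adjusted p = 0.0238 and 0.00562, with every probe set tested). One of them was still higher by 0.42 at day 5 (adjusted p = 0.0252), and the other was not (0.23, adjusted p = 0.36).

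Slc38a2 read 12.81, 12.67 and 12.41 in parental replicate 2 from untreated to day 2 and day 5. In the wild-type c-Myc line it read 12.05, 12.13 and 12.24, and in the c-Myc(T58A) line 11.85, 11.97 and 11.94. Its fitted changes were 0.02 ± 0.11 at day 2 and -0.04 ± 0.11 at day 5 (adjusted p = 0.929 and 0.799). The probe sets of this gene disagreed: the other 2 fell at day 5, with -0.77 and -0.64 (adjusted p = 0.00207 and 0.00845). Which part of the transcript each probe set reads is not given in the sources used here.

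Slc7a5 and its heavy chain Slc3a2 both fell at day 5, with -0.84 ± 0.15 and -0.54 ± 0.15 (adjusted p = 0.00376 and 0.0202). Slc7a5 read 11.66, 10.94 and 10.69 in parental replicate 2 from untreated to day 2 and day 5, 11.23, 10.73 and 10.43 in the wild-type c-Myc line, and 11.24, 11.36 and 10.47 in the c-Myc(T58A) line. Slc3a2 read 11.71, 11.22 and 11.04 in parental replicate 2, 11.33, 11.12 and 10.81 in the wild-type c-Myc line, and 11.21, 11.55 and 10.79 in the c-Myc(T58A) line. For both genes the c-Myc(T58A) sample at day 2 was above its untreated sample, and every day 5 sample was below every untreated sample. Neither passed at day 2 (adjusted p = 0.113 and 0.583).

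Slc7a11, the cystine importer, passed the level filter in too few samples to be tested in this fit. Parental replicate 2 read 6.35 untreated, 3.57 at day 2 and 2.89 at day 5, so both treated levels lay below the filter. With the filter of 4.64 taken as the floor, it was at least 3.26-fold lower at each day. The wild-type c-Myc line read 4.48, 3.30 and 3.26, and the c-Myc(T58A) line 4.21, 3.67 and 3.18, all of them below the filter. With the filter removed, the fitted changes were -1.5 ± 0.43 at day 2 and -1.9 ± 0.43 at day 5 (limma adjusted p = 0.0404 and 0.0101). Values were near background in all but 1 of the 9 samples, so this is no test of a fall in the 3 lines. Its second probe set stayed between 2.86 and 4.41 in all 18 samples and showed no such difference.

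Slc6a9, the glycine transporter, fell 2.20-fold at day 5 (-1.14 ± 0.15, adjusted p = 0.000933). It read 8.30, 7.30 and 6.80 in parental replicate 2 from untreated to day 2 and day 5, 7.84, 7.32 and 6.93 in the wild-type c-Myc line, and 7.79, 7.58 and 6.77 in the c-Myc(T58A) line. The order untreated, day 2, day 5 held from high to low in each line, and day 2 passed as well (-0.57 ± 0.15, adjusted p = 0.025). The second probe set of this gene gave -0.18 at day 5 and did not pass (adjusted p = 0.104), so the 2 probe sets disagree in size.

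Asns fell 1.81-fold at day 5 (-0.86 ± 0.13, adjusted p = 0.00151) and had the smallest adjusted p of the 9 at day 2 (-0.58 ± 0.13, adjusted p = 0.0131). It read 12.62, 11.78 and 11.82 in parental replicate 2 from untreated to day 2 and day 5, 12.53, 11.98 and 11.76 in the wild-type c-Myc line, and 12.76, 12.42 and 11.77 in the c-Myc(T58A) line. In parental replicate 2 the whole difference was present at day 2. Both Asns probe sets passed at both days, the second with -0.52 at day 2 and -0.82 at day 5 (adjusted p = 0.0257 and 0.00242).

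**Figure D2:**
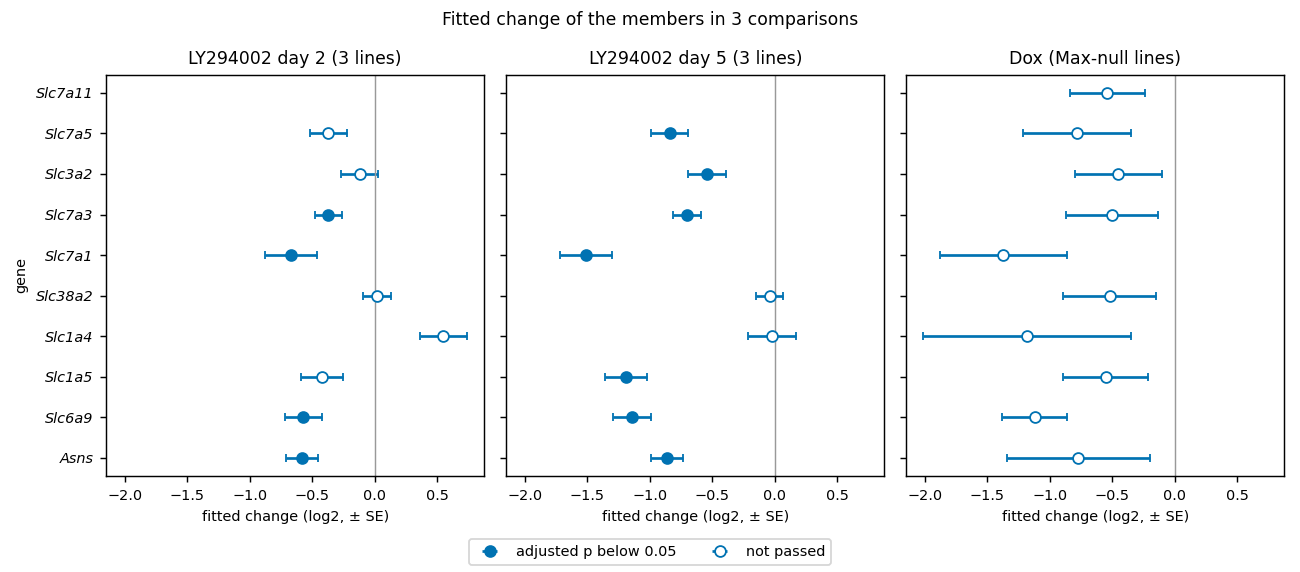
Fitted log2 change (horizontal axis) of each gene with its SE, for LY294002 at day 2 and day 5 in 3 lines (9 samples) and for Dox in both Max-null lines (5 samples), with filled points where the adjusted p was below 0.05. Filled points number 4 at day 2, 7 at day 5 and 0 for Dox, and Slc7a11 has a point for Dox only.

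Markers of other cell types were read in the same samples. Of 6 trophoblast markers tested, 4 were higher at day 5, against 25.7% of all genes, among them the keratin gene Krt18 (2.97 ± 0.34, adjusted p = 0.000565) and Eomes (0.68 ± 0.13, adjusted p = 0.00521). The summed log2 level of all 8 trophoblast markers was 51.9 to 56.0 in the 3 day 5 samples and 46.4 to 47.6 in the 3 untreated samples, while Gata3 and Elf5 stayed below the filter on all 18 arrays. Of 8 ESC markers, 3 were lower and 1 was higher, with sums of 98.4 to 99.4 at day 5 and 99.0 to 100.2 untreated. Esrrb (-0.71 ± 0.10, adjusted p = 0.00139) and Zfp42 (-0.64 ± 0.12, adjusted p = 0.004) fell and Utf1 rose (1.02 ± 0.11, adjusted p = 0.000375). Of 6 primitive endoderm markers tested, Dab2 was higher and Sox7 lower, and 0 of 3 fibroblast markers passed. The part of these markers in the changes above was not tested. In a bulk sample, fewer cells of a type and less RNA per cell cannot be told apart.

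The Myc genes themselves were higher with LY294002 in these lines. Myc rose 4.83-fold at day 5 (2.27 ± 0.18, adjusted p = 0.000158) and Mycn 3.55-fold (1.83 ± 0.33, adjusted p = 0.00352), and both had risen at day 2 (1.71 ± 0.18 and 1.69 ± 0.33, adjusted p = 0.000836 and 0.00821). Myc read 7.43, 9.19 and 9.60 in parental replicate 2 from untreated to day 2 and day 5, 7.51, 9.50 and 9.60 in the wild-type c-Myc line, and 6.99, 8.37 and 9.55 in the c-Myc(T58A) line. Mycn read 11.33, 12.38 and 11.95 in parental replicate 2, 10.07, 11.83 and 12.30 in the wild-type c-Myc line, and 9.33, 11.60 and 11.96 in the c-Myc(T58A) line. Every treated sample lay above every untreated sample for both genes. Their part in the changes of the transporters was not tested.

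All 8 serum samples were also fitted together, with a day 5 change for parental ESCs and another for the c-Myc lines, and parental replicate 1 moved little. Its day 5 changes lay between -0.35 (Asns) and 0.27 (Slc38a2) over 9 members, with 0 at 2-fold. In parental replicate 2 the same 9 lay between -1.70 (Slc7a1) and -0.04 (Slc1a4), with 3 at least 2-fold lower. Slc7a11 is left out of such counts and medians wherever a sample of the pair lay below the filter, since it would enter only through the sample in which it is high. Of all genes, 3.09% were at least 2-fold lower in parental replicate 1 and 4.05% in parental replicate 2. In replicate 1, Asns read 12.57 at day 5 and 12.92 untreated, Slc7a1 11.08 and 11.19, Slc7a5 11.42 and 11.53, and Slc3a2 11.51 and 11.45. Slc7a3 read 10.75 at day 5 and 11.00 untreated, Slc1a5 7.34 and 7.56, Slc6a9 7.35 and 7.58, Slc1a4 8.45 and 8.65, Slc38a2 11.72 and 11.45, and Slc7a11 3.30 and 3.51. Slc7a5, Slc7a3, Slc7a1, Slc1a5, Slc6a9 and Asns were lower at day 5 in all 4 serum pairs, which makes 6 of 9 members, against 21.6% of genes measured in all 4 pairs.

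In that 8-sample fit, blocked by pair (2 residual degrees of freedom), 0 of 9 members passed in parental ESCs (0.53% of all genes did) and 0 of 9 in the c-Myc lines (2.62% of all genes). At an unadjusted p under 0.05 the counts were 4 and 6, against 21.8% and 28.3% of all genes. All 9 fitted changes were below 0 in parental ESCs, as were 44.6% of all genes, from -0.07 for Slc38a2 to -0.90 for Slc7a1. In the c-Myc lines Slc38a2 was fitted at 0.14 and Slc1a4 at 0.00, and the smallest adjusted p was 0.0629, for Asns (-0.88 ± 0.16). These counts moved with the parental pairs: without replicate 1, 8 members were lower in parental ESCs and 7 in the c-Myc lines, while 35.5% and 41.5% of all genes passed. Without replicate 2 the counts were 0 and 7, while 9.06% and 41.5% of all genes passed.

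The difference between these 2 coefficients asks if extra c-Myc changed the response at day 5. It passed for 0 of 9 members and 0.0% of all genes, and at an unadjusted p under 0.05 for 0 members and 3.41% of all genes (457 of 13404). The fitted differences lay between -0.51 ± 0.55 for Slc7a1 and 0.20 ± 0.27 for Slc38a2 (SE). Without parental replicate 2 the widest fitted difference was -1.3, for Slc7a1, in a fit that assumes the lone parental pair varies like the others. That pair, replicate 1, is in the other array set than both c-Myc lines, so c-Myc and array set cannot be told apart there. Without parental replicate 1, 6 of the fitted differences turned above 0.

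Across the 9 samples, c-Myc lines were also set against parental replicate 2 with the days averaged. Slc38a2 was lower (-0.60 ± 0.10, adjusted p = 0.015), and the 8 other members tested did not pass, against 14.2% of all genes that did. The 3 arrays of a line count as its replicates here, and with 1 parental culture the error leaves out the spread between separately made lines or cultures. At each of the 3 times the brightest Slc38a2 probe set was lower in both c-Myc lines than in parental replicate 2. The differences were -0.76 and -0.97 in the untreated wild-type c-Myc and c-Myc(T58A) samples. The call was lost without either c-Myc line (adjusted p = 0.0648 and 0.135) and without day in the model (adjusted p = 0.162). With every probe set tested, the second Slc38a2 probe set was lower as well (-0.85, limma adjusted p = 0.00595). The third did not pass (-0.29, adjusted p = 0.139). It read 6.12 in the wild-type c-Myc line at day 5, against 6.03 in parental replicate 2. Slc7a11 read 4.48 and 4.21, below the filter, in the untreated c-Myc and c-Myc(T58A) lines against 6.35 in untreated parental replicate 2. This difference rests on that 1 parental array. The second Slc7a11 probe set read 3.34 and 3.31 in those lines and 3.53 in parental replicate 2, all below the filter. Of the 9 other members, 0 were at least 2-fold lower in either untreated line, against 0.668% of all genes in the wild-type c-Myc and 1.46% in the c-Myc(T58A) line. Between c-Myc(T58A) and wild-type c-Myc, 0 of 9 members passed, as did 0.0% of all genes, and at an unadjusted p under 0.05 there were 0 members and 3.46% of all genes (464 of 13420).

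The c-Myc(T58A) sample at day 2 differed from the other day 2 samples in these genes and in several related lists. Its 9 member changes ran from -0.34 (Asns) to 1.03 (Slc1a4), with a median of 0.07, and 5 were above 0. The median at day 2 was -0.40 in the wild-type c-Myc line and -0.72 in parental replicate 2. Of all genes, 1.25% were at least 2-fold higher in that sample, Slc1a4 among them, and 1.32% at least 2-fold lower. These were 166 and 175 genes, against 234 and 295 in the wild-type c-Myc line and 478 and 353 in parental replicate 2. The ATF4 response genes described below had a median of -0.03 there, against -0.82 and -0.71 in the other lines, in that order. Amino acid synthesis genes had -0.07 (-0.50 and -0.99), tRNA synthetases -0.07 (-0.28 and -0.43) and other transporters 0.09 (0.05 and 0.13). By day 5 the member medians were -0.77 in the c-Myc(T58A) line, -0.77 in the wild-type c-Myc line and -0.91 in parental replicate 2. No sample repeats the c-Myc(T58A) line at day 2, so this difference has no replicate check.

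**Figure D3:**
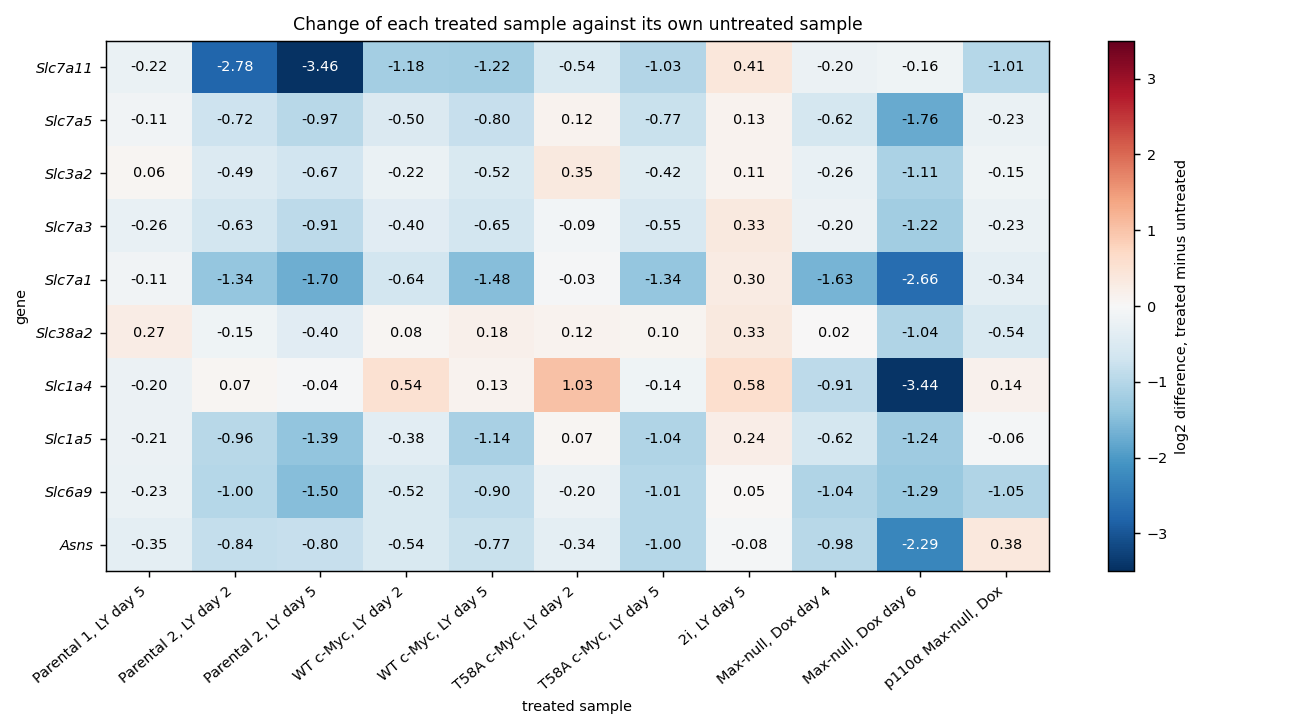
Log2 difference between each treated sample and its own untreated sample (colour and printed value), with genes in rows and the 11 treated samples in columns. The 2i column is mostly positive, the column for Max-null ESCs at day 6 of Dox is negative throughout, and the Slc7a11 row, whose levels lay below the filter in all but 3 samples, is most negative in parental replicate 2.

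In 2i medium, in which 2 kinase inhibitors and no serum are commonly used to hold ESCs in a uniform state, 8 of the 9 measured members read slightly higher after 5 days of LY294002, and none passed a test. The 9 changes had a median of 0.24, against 0.0 over all genes past the filter, and a range of -0.08 to 0.58. Of the 9, 0 reached 2-fold. The share of all genes that read higher in this pair was not counted. Of all genes, 2.67% differed at least 2-fold in this pair. Slc1a4 read 9.15 with LY294002 and 8.57 untreated, the largest of the differences. Slc7a1 read 11.79 with LY294002 and 11.50 untreated, Slc7a3 10.84 and 10.51, Slc38a2 11.15 and 10.82, and Slc1a5 8.07 and 7.83. Slc7a5 read 11.54 and 11.40, Slc3a2 11.64 and 11.53, Slc6a9 7.55 and 7.50, and Asns 13.17 and 13.24. Slc7a11 was below the filter in both, at 4.01 with LY294002 and 3.60 untreated. The 2i pair had no replicate.

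The pair was fitted together with the 4 serum day 5 pairs, blocked by pair (3 residual degrees of freedom), which assumes that it varies like them. This test was added after the data were seen. For LY294002 in 2i, 0 of 9 members passed, as did 0.0% of all genes, and at an unadjusted p under 0.05 there was 1 member, Slc1a4 (0.58 ± 0.17), against 7.88% of all genes. For the change in 2i minus that in serum, 0 of 9 passed, as did 0.0% of all genes, and at an unadjusted p under 0.05 there were 3 members against 11.1% of all genes. These were Slc1a5 (1.19 ± 0.44), Slc7a3 (0.92 ± 0.27) and Slc1a4 (0.64 ± 0.20). Without parental replicate 1 this difference passed for 5 members, Slc7a5, Slc7a3, Slc7a1, Slc1a5 and Asns, and 9.96% of all genes. That left serum pairs of 1 array set only, none of them in the set of the 2i arrays.

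Untreated 2i and serum cultures were compared within the 4 arrays of 1 set, as 2i minus parental replicate 1. Of 9 members, 4 were higher in 2i and 5 lower, and 0 reached 2-fold (5.83% of all genes did). The widest differences were in Slc38a2, at 10.82 in 2i and 11.45 in serum, and Slc7a3, at 10.51 in 2i and 11.00 in serum. Asns read 13.24 in 2i and 12.92 in serum.

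In Max-null ESCs every measured member was lower at day 6 of Dox. All 9 were at least 2-fold lower than in the untreated sample, with changes of -1.04 to -3.44 and a median of -1.29, against 15.6% of all genes at least 2-fold lower and a median of -0.09 over all genes. At day 4 the count was 2 of 9, Slc7a1 and Slc6a9, against 8.71% of all genes. The median of the day 6 array lay 0.16 above that of its untreated sample, so with arrays centred on their medians the day 6 changes were larger, and with quantile normalization 6 of 9 were at least 2-fold lower. All 9 remained below 0 under both. There was 1 sample a group, so these are values without a test.

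Slc1a4 differed most, reading 9.29 in untreated Max-null ESCs, 8.38 at day 4 and 5.84 at day 6, which is 10.9-fold lower at day 6. Its other probe sets gave 7.57, 6.32 and 4.49, and 7.05, 6.34 and 5.93 in the same order. All 3 probe sets were lower at day 4 and lower again at day 6, although by different amounts. Slc7a1 read 11.63, 9.99 and 8.96 from untreated to day 4 and day 6, 6.33-fold lower at day 6. Asns read 12.67, 11.69 and 10.38, 4.89-fold lower at day 6. Slc7a5 read 11.42, 10.81 and 9.66, and Slc3a2 11.65, 11.40 and 10.54. These 5 genes were lower at day 4 and lower again at day 6. Slc1a5 read 7.61, 6.99 and 6.37, and Slc6a9 8.09, 7.05 and 6.80, so that most of the Slc6a9 difference was present at day 4. Slc7a3 read 11.54, 11.35 and 10.32, and Slc38a2 12.25, 12.28 and 11.22, and for both genes nearly all of the difference came after day 4. The other 2 Slc38a2 probe sets moved less at day 6, at 9.94 against 10.14 and 5.64 against 5.70 untreated, and the second Slc6a9 probe set read 7.21 against 6.87. Slc7a11 lay below the filter throughout, at 3.63, 3.43 and 3.47.

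The day 6 sample was also the one with the most signal from markers of other cell types. The summed log2 level of 7 primitive endoderm markers was 31.0 untreated, 35.6 at day 4 and 39.6 at day 6, with Foxa2 at 4.54, 6.23 and 7.55, while Gata4 stayed below the filter at all 3 times. The sum of 8 trophoblast markers was 48.2, 50.1 and 57.1, and that of 7 fibroblast markers 29.8, 31.3 and 34.1, with Col3a1, Postn and Lum below the filter on all 18 arrays. The trophoblast sum holds the keratin genes Krt8 (7.44, 8.45 and 10.29) and Krt18 (7.27, 8.36 and 10.22). Not every marker rose: Tfap2c read 10.42, 9.52 and 8.91, Eomes 6.90, 5.86 and 6.82, and Thy1 6.69, 6.15 and 6.45. Sox7, below the filter, read 4.17, 3.85 and 3.90. The 8 ESC markers summed to 101.3, 100.9 and 97.8. The part of these markers in the lower levels of the transporters was not tested. The day 6 array had the highest median and the smallest spread, and the sums include markers below the filter. Among those, Gata3 read 4.46 at day 6 against 2.79 untreated, and Col3a1 3.46 against 2.81. Postn read 4.07 against 3.62, while Lum read 3.25 against 3.32. The part of the array's spread in the sums was not tested.

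In Max-null ESCs overexpressing p110 alpha, Slc6a9 and Slc7a11 were at least 2-fold lower with Dox, 2 of 10 members measured, against 0.445% of all genes. The median was -0.23. Slc6a9 read 8.31 with Dox and 9.37 untreated, and Slc7a11 5.65 with Dox and 6.66 untreated. Their second probe sets moved less, at 6.72 with Dox and 7.37 untreated for Slc6a9. For Slc7a11 they were 3.41 and 3.65, both below the filter. Slc38a2 read 12.14 and 12.69, Slc7a1 12.28 and 12.62, Slc7a3 11.98 and 12.21, Slc7a5 11.62 and 11.85, Slc3a2 12.00 and 12.15, and Slc1a5 7.97 and 8.03, with Dox first. Asns and Slc1a4 were slightly higher, at 13.23 and 9.35 with Dox against 12.85 and 9.21 untreated. Because the labels leave out how long this line had Dox, these values stand beside those of the Max-null line and the size of a difference between the lines was not tested.

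Tested over both lines, blocked by line (2 residual degrees of freedom), 0 of 10 members passed for Dox. The fit took day 4, day 6 and the p110 alpha sample as 1 Dox group. Differences between the days, and between the lines in their response, therefore entered the error. A count of 0 here does not show that Dox had no effect. All 10 fitted changes were below 0, as were 53.4% of all genes, and 0.0% of 13534 genes passed. At an unadjusted p under 0.05 the members were Slc7a1 (-1.37 ± 0.51) and Slc6a9 (-1.12 ± 0.26), 2 of 10 against 5.18% of all genes. The second Slc6a9 probe set gave only -0.21 ± 0.31 (limma unadjusted p = 0.516). Leaving out the p110 alpha Dox sample, which leaves 3 Max-null samples for the change, gave 2 members past the threshold, Slc7a1 and Slc6a9, and 11.0% of all genes.

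Before Dox, the p110 alpha line had more signal for most members than the Max-null line. Of the 9 members above the filter in both, 8 were higher, with a median difference of 0.43, against -0.06 over all genes. Slc6a9 was 2.43-fold higher, at 9.37 in untreated p110 alpha Max-null ESCs and 8.09 in untreated Max-null ESCs, and was the 1 of the 9 to reach 2-fold upwards, against 1.34% of all genes. Slc7a1 was just short of it, at 12.62 and 11.63. The second Slc6a9 probe set differed less, at 7.37 in the p110 alpha line and 6.87 in the Max-null line. Slc7a11 read 6.66 in the p110 alpha line and 3.63, below the filter, in the Max-null line, at least 4.05-fold higher with the filter as the floor. The second Slc7a11 probe set read 3.65 in the p110 alpha line and 2.90 in the Max-null line. Slc7a11 was thus above the filter in only 3 of the 18 samples: untreated parental replicate 2 and both p110 alpha samples.

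The members varied together to different degrees. With each sample centred within its line, the correlation of a member with the mean of the other 9 over 18 samples was 0.99 for Slc7a5, 0.97 for Slc7a1 and Slc7a3, 0.96 for Slc3a2, 0.93 for Slc1a5, 0.89 for Asns and 0.88 for Slc6a9. It was 0.63 for Slc38a2, 0.61 for Slc1a4 and 0.57 for Slc7a11. Over the 45 pairs of members the median was 0.76, the lowest 0.01 and the highest 0.98. These are descriptions: the samples share untreated references and the day 6 Dox sample lies far from the rest. Slc7a11, above the filter in only 3 of the 18 samples, enters these means, and its part in them was not tested.

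Of 14056 other genes ranked by the same measure against the mean of the 10 members, the 8 most alike were Kdm4a (r = 0.983), Prpf38b (0.975), Zfp598 (0.973), Rheb (0.971), Stc2 (0.97), Bet1 (0.969), Mtfr1 (0.969) and Vldlr (0.966), over 18 samples. Kdm4a encodes a histone demethylase, Zfp598 a ubiquitin ligase of stalled ribosomes, Rheb the GTPase that activates mTORC1, Stc2 a secreted glycoprotein and Vldlr a lipoprotein receptor. Vldlr differed most of the 8, by -2.62 at day 5 in parental replicate 2, -2.69 in the wild-type c-Myc line, -2.63 in the c-Myc(T58A) line and -3.72 at day 6 of Dox in Max-null ESCs. It moved by 0.06 in 2i and -0.44 in the p110 alpha line with Dox. Rheb followed the same course over a smaller range, from -0.50 at day 6 of Dox to 0.09 in 2i. The mean used for this ranking includes Slc7a11, mostly below the filter, and a ranking without it was not made.

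Other genes of amino acid supply were read from lists drawn up with earlier results of these data known. In the 3 lines at day 5, 15 of 17 regulators and targets of the ATF4 response were lower and 0 higher, with a median of -1.56, against 18.5% of all genes lower and 25.7% higher and a median of 0.05. Both Atf5 (-2.93 ± 0.27) and Atf4 itself (-1.27 ± 0.13) fell (adjusted p = 0.000245 and 0.000347). This list also holds Stc2 and Vldlr. Of 13 genes of amino acid synthesis, 9 were lower and 2 higher, with a median of -0.86. Cth, which makes cysteine, was at -2.82 ± 0.31, and Psph, the last enzyme of serine synthesis, at -1.42 ± 0.14. Got2 and Cbs were the 2 that rose, by 0.58 ± 0.09 and 0.46 ± 0.10.

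Among 20 aminoacyl-tRNA synthetases, which load amino acids onto tRNA, 15 were lower and 3 higher at day 5, with a median of -0.52. Cars (-1.06 ± 0.13) and Nars (-1.04 ± 0.14) fell, while Kars and Qars rose by 0.65 ± 0.09 and 0.45 ± 0.08. The other transporters did not move one way: of 22 tested, 6 were lower and 5 higher at day 5, near the 18.5% and 25.7% of all genes, with a median of 0.12. Slc1a1, a glutamate carrier, fell 3.47-fold (-1.80 ± 0.20, adjusted p = 0.000535) and Slc38a1, a glutamine carrier, 1.85-fold. Slc7a7, the light chain that exports arginine and lysine, rose 2.46-fold (1.30 ± 0.07, adjusted p = 7.49e-05), and Slc1a3 rose by 0.46 ± 0.07. At day 2, 6 of 17 ATF4 genes, 6 of 13 synthesis genes and 9 of 20 synthetases were lower, against 12.3% of all genes. Atf5 (-1.90 ± 0.27) and Eif2ak3, a kinase upstream of ATF4 (-0.51 ± 0.11), led the first list, and Cth (-1.79 ± 0.31) and Psph (-0.75 ± 0.14) the second, in which Got2 rose by 0.53 ± 0.09. Of the synthetases, Cars (-0.80 ± 0.13) and Mars1 (-0.41 ± 0.09) fell, and Kars and Qars rose by 0.58 ± 0.09 and 0.34 ± 0.08. Of the other transporters, 4 of 22 were lower and 6 higher at day 2, led by Slc1a1 (-1.24 ± 0.20) and Slc38a1 (-0.69 ± 0.09) downwards and by Slc7a7 (1.10 ± 0.07) and Slc43a1 (0.70 ± 0.09) upwards. For Dox 0 genes of any of these 4 lists passed, as did 0.0% of all genes, and at an unadjusted p under 0.05 there were 2 of 17 ATF4 genes and 0 in the other lists.

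**Figure D4:**
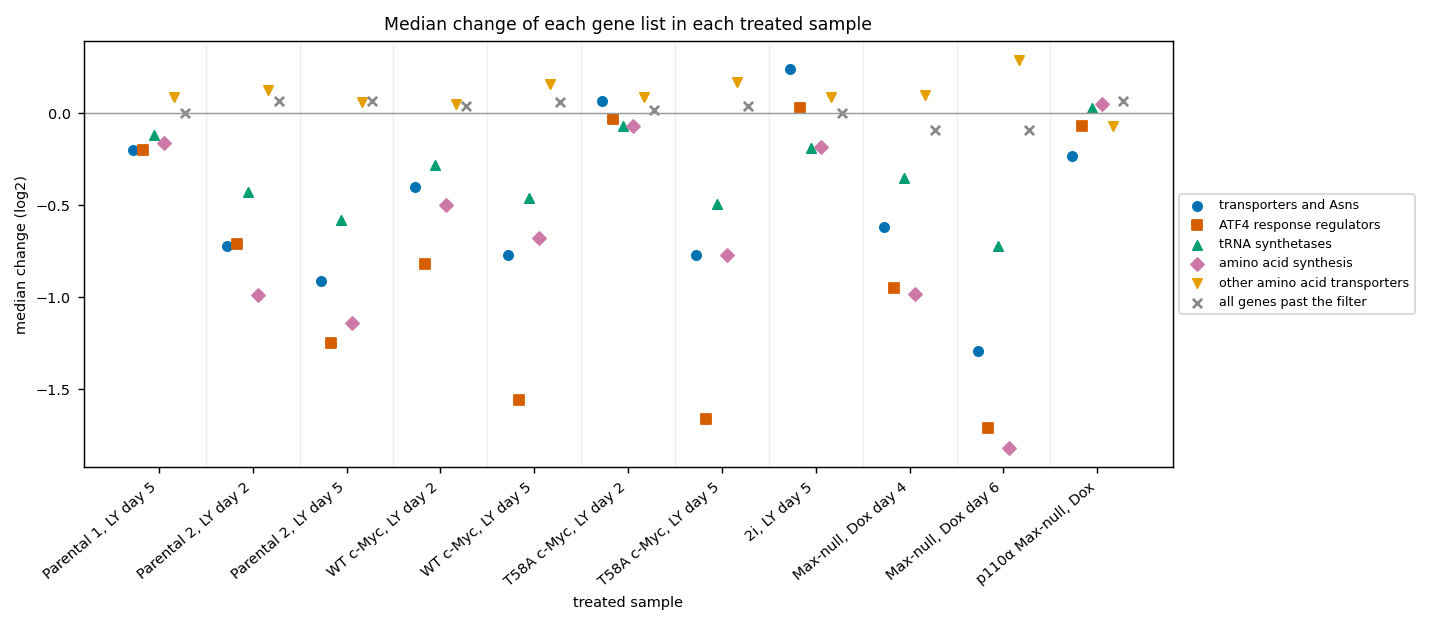
Median log2 change (vertical axis) of the transporters and Asns and of 4 further gene lists in each treated sample against its own untreated sample, with the median over all genes past the filter as crosses and Slc7a11 counted in the p110 alpha line only. The transporters and Asns, ATF4 response, synthesis and tRNA synthetase medians lie below that of all genes in the day 5 samples of parental replicate 2 and the c-Myc lines and in both Max-null Dox samples, and the other transporters stay between -0.07 and 0.29.

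Sample by sample, the median of the 17 ATF4 genes was -1.25, -1.56 and -1.66 at day 5 in parental replicate 2, the wild-type c-Myc and the c-Myc(T58A) lines, -0.20 in parental replicate 1 and 0.03 in 2i. It was -0.95 and -1.71 at days 4 and 6 of Dox in Max-null ESCs and -0.07 in the p110 alpha line. The corresponding medians of the transporters and Asns were -0.91, -0.77, -0.77, -0.20, 0.24, -0.62, -1.29 and -0.23. Both lists were thus lowest in Max-null ESCs at day 6, and lay within 0.25 of 0 in parental replicate 1, in 2i and in the p110 alpha line.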

How the data were processed

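The authors deposited 1 table of log2 values for 45101 probe sets, made by RMA with the affy package per the submitters' processing notes, on arrays of biotin-labelled cRNA from TRIzol-extracted RNA per the labels. Versions and settings are not given in the sources used here. Arrays carry no read depth, and their small number sets how precise a value can be. The platform annotation gave 34945 probe sets 1 gene, 932 several and 9160 none, and 64 were controls. Of those naming 1 gene, 34741 were matched to RefSeq by gene identifier, and 9009 of 18194 genes had several probe sets.

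Treated samples were paired with the untreated sample that their description names. In R 4.3.3, limma 3.58.1 (lmFit, then eBayes) tested changes with line or pair as a block. A gene entered a fit if 2 of its samples lay above 4.64, and an untested pair if 1 did (both, for members). The 2-sided p-values were adjusted by the Benjamini-Hochberg method across every gene that entered, and 0.05 was the threshold. As a check of the pairing, samples of 1 line deviated together over genes, with r of 0.124 to 0.61 in the 9-sample fit. In the 8-sample fit r was 0.563 between the parental pairs (which any offset between RMA runs would raise) and 0.158 between the c-Myc lines. In the Dox fit it was 0.123. The fits were tested on simulated data. All 10 members are named, and from each other list, in each fit in which it is described, the 2 genes of smallest p in each direction among those that passed. The Myc genes were named after their values were seen. The 8 most alike genes were named by rank. Members and lists were chosen with earlier results of these data known. List symbols were matched through RefSeq synonyms, and 3 of 16 synthesis genes, 1 of 21 synthetases and 1 of 8 fibroblast markers were not analysed here. Alternatives changed the filter, scaling, probe set rule, prior, block and samples.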

Additional observations from a re-analysis of the deposited data

Results flagged for a closer look

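At day 5 of LY294002, 5 members were higher than untreated in 2i and lower than untreated in all 4 serum pairs. They were flagged because they showed this pattern, and the share of all genes that showed it was not counted. Of genes measured in all 4 serum pairs, 21.6% were lower in each. The change in 2i minus the mean change of the serum pairs was 1.45 for Slc7a1 (0.30 in 2i and -1.16 in serum), 1.19 for Slc1a5 (0.24 and -0.94), 0.96 for Slc6a9 (0.05 and -0.91), 0.92 for Slc7a3 (0.33 and -0.59) and 0.79 for Slc7a5 (0.13 and -0.66). None of these 5 differences passed in the limma fit of the 5 pairs, in which the 2i pair is assumed to vary like the serum pairs (adjusted p of 0.413 for Slc7a3 to 0.464 for Slc6a9). The serum mean includes parental replicate 1, the pair on arrays of the same set as 2i, whose own changes were -0.11 for Slc7a1, -0.21 for Slc1a5, -0.23 for Slc6a9, -0.26 for Slc7a3 and -0.11 for Slc7a5.

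With Dox, 2 members were higher than untreated in the p110 alpha Max-null line and lower than untreated at both days in the Max-null line. The share of all genes with this pattern was not counted. The change in the p110 alpha line minus the mean of days 4 and 6 was 2.32 for Slc1a4 (0.14 and -2.17) and 2.02 for Asns (0.38 and -1.63). This difference was not tested, and the day of Dox in the p110 alpha line is not given.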

How the results depend on the processing

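Of 119 alternatives to the counts of members, 94 left the count within 1.5 times and 25 moved it. Leaving out 1 replicate at a time gave 0 to 6 members at LY294002 day 2 and 6 to 7 at day 5 in 3 lines. It gave 0 to 3 for day 5 minus day 2 (3 without parental replicate 2), 0 for c-Myc lines minus parental, 0 to 8 for day 5 in parental ESCs, 0 to 7 for day 5 in the c-Myc lines, 0 to 4 for their difference and 0 to 2 for Dox. With no replicate block 2 members passed at day 2, and the block changed no other count. A filter at the 60th percentile or a trended and robust prior gave 1 for day 5 minus day 2 (Slc1a5), and that prior gave 1 for day 5 in the c-Myc lines (Asns). Quantile normalization or that prior gave 2 for c-Myc lines minus parental, and leaving out day gave 0. Separate coefficients in the 9-sample fit gave 6 for day 5 in the c-Myc lines. At 2-fold, the mean of all probe sets gave 0 for untreated p110 alpha against Max-null, 1 for day 4 of Dox and 0 for the p110 alpha line. Quantile normalization gave 2 for untreated p110 alpha against Max-null and 1 each for day 4 and the p110 alpha line with Dox, and median centring 1 for the p110 alpha line. The causes were not tested.

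Of 1073 alternatives to single members' values, 964 kept direction and side of the threshold and 29 reversed, none of them past the threshold. With the mean of all probe sets, Slc38a2 turned to -0.30 at day 2, -0.32 at day 5 in the c-Myc lines and -0.12 for c-Myc minus parental at day 5, Slc1a4 to 0.21 at day 5 in 3 lines, 0.12 in parental ESCs and 0.21 in the c-Myc lines, and Slc6a9 to 0.03 for c-Myc lines minus parental. With median centring Slc1a4 turned to 0.01 and 0.04 at day 5 in 3 lines and in the c-Myc lines, and Slc7a3 to 0.02 for c-Myc minus parental at day 5. Leaving out 1 replicate at a time put Slc38a2 between -0.04 and 0.10 at day 2, -0.15 and 0.14 at day 5 in 3 lines, -0.14 and 0.04 for day 5 minus day 2, and -0.40 and 0.27 in parental ESCs. It put Slc3a2 between -0.35 and 0.07 at day 2 and -0.67 and 0.06 in parental ESCs, Slc1a4 between -0.09 and 0.04 at day 5 in 3 lines and -0.14 and 0.13 in the c-Myc lines, and Slc7a1 between -0.04 and 0.33 for c-Myc lines minus parental. For c-Myc minus parental at day 5 the ranges were -0.67 to 0.18 for Slc7a5, -0.53 to 0.20 for Slc3a2, -0.34 to 0.31 for Slc7a3, -1.30 to 0.29 for Slc7a1, -0.13 to 0.54 for Slc38a2, -0.02 to 0.26 for Slc1a4, -0.87 to 0.30 for Slc1a5 and -0.73 to 0.54 for Slc6a9. Such a fit assumes that a group left with 1 sample varies like the others.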
